A study of Mus musculus with 35 samples.

Results

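Collagens are the proteins of the extracellular matrix that are built around a triple helix. The family described here held the 42 protein-coding mouse genes of GENCODE release M21 whose symbol has the form of a collagen chain (Col, a type number, a, a chain number), with Col23a1 and Col25a1 left out. They were 42 of the 54119 genes to which the deposited transcripts were summed. Cells were sorted for ACSA2, the astrocyte surface antigen encoded by Atp1b2. They came from the hypothalamus, the hippocampus or the cortex, and the animals were C57BL/6JRj males for which the labels name no altered allele. From 8 to 9 weeks of age the mice were fed for 4 months either standard chow (SC), the control diet, or a diet rich in fat and sugar (HFHS, labelled 58%). Each replicate was a pool of tissue from 2 animals, with only part of each cortex used. There were 6 hypothalamus, 5 hippocampus and 6 cortex replicates on SC, and 5, 7 and 6 on HFHS, or 35 libraries in 6 groups. Cortex cells were sorted on another magnetic column type, with scaled reagent volumes, so that a difference between cortex and the other regions cannot be told apart from the sorting.

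Every collagen chain carries stretches of repeated glycine-X-Y triplets, and 3 such chains wind around each other. Fibrillar collagens (types I, II, III, V, XI, XXIV and XXVII) assemble into fibres. FACIT collagens, such as types IX and XVI, attach to fibres, and type IV forms the sheet of basement membranes, which in brain line the blood vessels and the surface under the meninges. Type VIII forms open networks, best known from the basement membrane of the cornea, and type VI forms beaded filaments. Fibroblasts and pericytes of the vessel wall and the meninges are the usual collagen sources named for brain, while astrocytes contribute to the basement membrane at their end feet.

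The coding sequences show what the members share. The stretches printed here are the first 24 codons of the longest unbroken glycine repeat in 5 of the genes on which the comparisons turn, followed by a stretch of Col4a1. Capitals mark the glycine codons of the repeat, which all begin with GG. Sequences are of the sense strand, 5′ to 3′, from the GENCODE transcripts of GRCm38, and each stretch also lies in the coding transcript with the highest mean level of its gene.
Col9a3: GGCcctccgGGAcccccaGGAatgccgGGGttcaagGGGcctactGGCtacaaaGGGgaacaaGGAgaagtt
Col8a2: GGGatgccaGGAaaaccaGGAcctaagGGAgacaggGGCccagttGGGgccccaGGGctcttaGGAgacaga
Col8a1: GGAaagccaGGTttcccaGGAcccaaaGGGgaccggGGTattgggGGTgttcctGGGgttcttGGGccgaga
Col11a2: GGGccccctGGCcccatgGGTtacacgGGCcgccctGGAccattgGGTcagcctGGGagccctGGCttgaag
Col5a3: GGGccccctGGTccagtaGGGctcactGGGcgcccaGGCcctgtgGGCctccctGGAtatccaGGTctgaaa
Col4a1: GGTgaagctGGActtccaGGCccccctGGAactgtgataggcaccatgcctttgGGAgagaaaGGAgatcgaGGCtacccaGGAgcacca
The stretches run from codon 177 to 200 of Col9a3 (chromosome 2), 312 to 335 of Col8a2 (chromosome 4), 352 to 375 of Col8a1 (chromosome 16), 487 to 510 of Col11a2 (chromosome 17) and 478 to 501 of Col5a3 (chromosome 9), counted from the start codon. The Col4a1 stretch, codons 323 to 352 on chromosome 8, shows an interruption of 6 codons between the end of one repeat and the start of the next. Breaks of this kind are typical of type IV.

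All 42 members had a run of at least 20 glycine triplets in their longest coding sequence. Of the 21497 other protein-coding genes with a coding sequence that began with ATG and stayed in frame, 22 had one (0.102%). Col23a1 and Col25a1, left out of the family, were not set apart from these other genes. The fibrillar genes had the longest runs. In 9 of the 11 fibrillar genes the longest run had 337 to 344 triplets, as in Col11a2 (338) and Col5a3 (337), while Col24a1 had 216 and Col27a1 had 217. The 3 type IX genes had 113 each, Col8a1 had 61 and Col8a2 had 60. Col4a1 had 40 triplets at most. The other classes overlapped, with 32 to 113 triplets in FACIT genes, 37 to 87 in type VI and 39 to 66 in type IV.

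**Figure D1:**
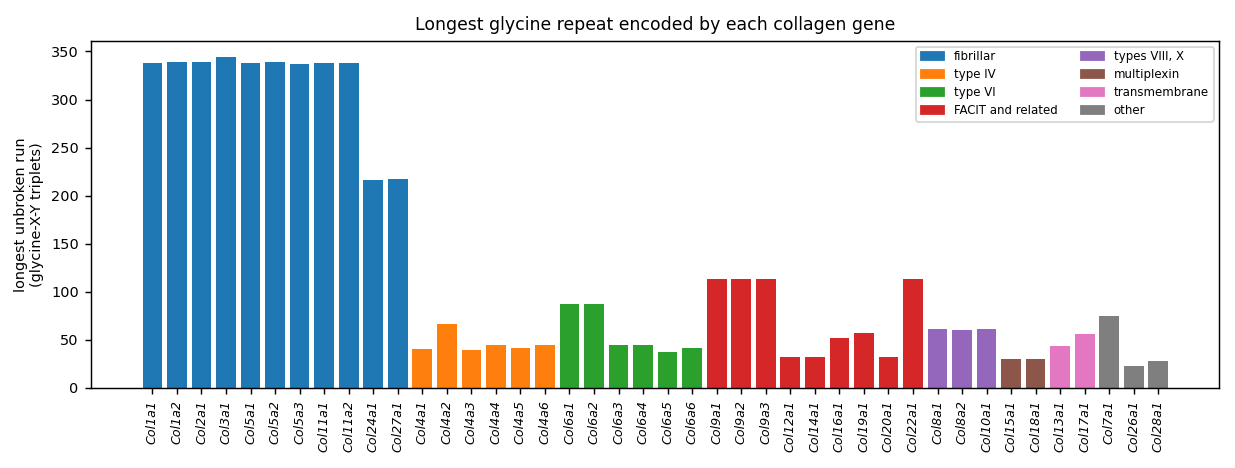
Longest unbroken run of glycine-X-Y triplets (y axis, number of triplets) encoded by the longest coding sequence of each of the 42 collagen genes, coloured by class. Most fibrillar genes reach 337 to 344 triplets, with Col24a1 at 216 and Col27a1 at 217, and the 3 type IX genes reach 113.

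Each library held 47578560 to 65982495 estimated reads. Atp1b2 was present in each, at 24.9 to 951 TPM (a level corrected for transcript length and scaled to the library total), but the fractions were mixed. The summed level of 10 oligodendrocyte markers was 67220 to 93930 TPM in hypothalamus on SC and 6728 to 50580 TPM in cortex on SC, against 1595 to 2697 and 1681 to 8451 TPM for 12 astrocyte markers. The collagen values therefore belong to the sorted fraction and not to astrocytes alone. A lower value in bulk RNA can come from fewer cells of a type or from less RNA per cell, and these cannot be told apart. In 3 libraries, replicate 6 of hypothalamus SC, cortex SC and cortex HFHS, the mean transcript length was 1469, 1034 and 1191 bases, below the 1533 to 1858 bases of the other 32, and they are called the short libraries here.

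Collagen transcripts summed to 133.7 to 313.8 TPM in hypothalamus on SC, with a median of 241.5, and to 91.8, 141.3, 220.9, 186.9 and 141.5 TPM in the 5 hypothalamus replicates on HFHS. The sums were 235.9, 211.8, 135.0, 709.1 and 536.6 TPM in hippocampus on SC, and 137.6 to 365.2 TPM with a median of 175.3 on HFHS. In cortex they were 14.5 to 140.6 TPM (median 64.91) on SC and 14.8 to 158.8 TPM (median 68.84) on HFHS. The lowest cortex sum of each diet was that of its short library. The groups of cortex and hypothalamus overlapped only slightly on SC, where the lowest hypothalamus sum was that of its own short library.

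A few genes held most of this RNA. Col9a3, a chain of type IX, made up 44.0% of all collagen TPM over the libraries, and Col8a2 and Col8a1, the chains of type VIII, 14.9% and 5.49%. Col4a1 followed with 4.59% and Col1a2 with 3.87%. These pooled shares weigh the groups with the largest sums most, and the order differed by group. Col9a3 was the highest member in every hippocampus, cortex and HFHS hypothalamus library, while in hypothalamus on SC Col8a2 was highest in 3 of the 6 libraries and had the higher mean (63.07 TPM, against 48.3 TPM for Col9a3). Col8a1 had a mean of 33.27 TPM in hippocampus and 1.293 TPM in hypothalamus on SC. By the highest mean of any group, 7 genes exceeded 10 TPM, 21 lay above 1 and up to 10, 11 above 0.1 and up to 1, and 3 did not exceed 0.1. No member was at 0 in every group. The 7 genes above 10 TPM were Col9a3, Col8a2, Col8a1, Col4a1, Col16a1, Col1a2 and Col5a3. The 3 lowest were Col19a1, Col10a1 and Col6a6, with highest group means of 0.0787, 0.0544 and 0.0271 TPM. Between these ends, the 11 genes with a highest group mean above 0.1 and up to 1 TPM were Col5a1, Col6a3, Col6a4, Col7a1, Col12a1, Col14a1, Col15a1, Col20a1, Col22a1, Col24a1 and Col28a1.

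**Figure D2:**
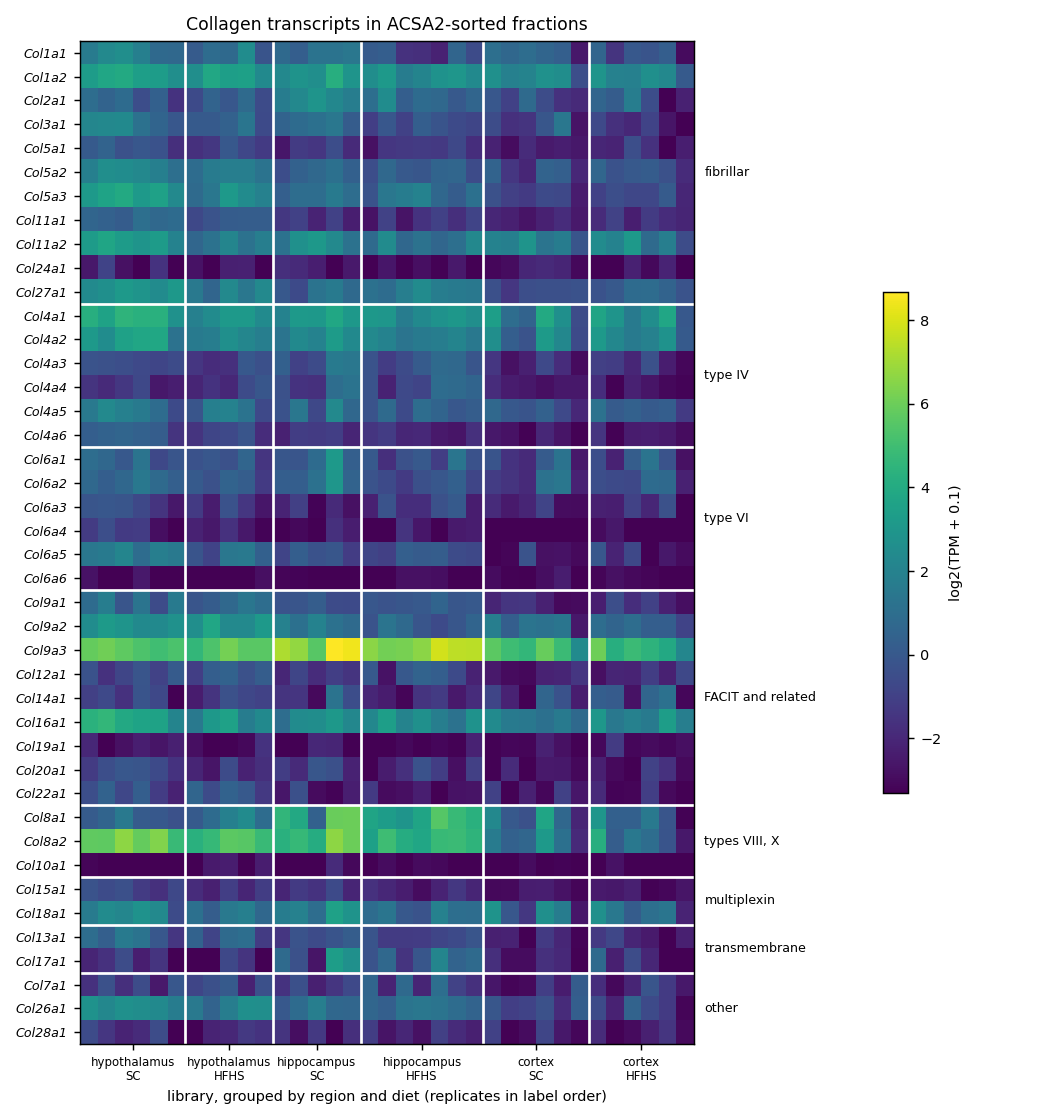
Level of each of the 42 collagen genes (rows, grouped by class) in each of the 35 libraries (columns, grouped by region and diet), as log2(TPM + 0.1). Col9a3 is bright in nearly every library, Col8a2 is bright in hypothalamus and hippocampus, Col8a1 in hippocampus, and the last library of each cortex group, which is its short library, is dark for most genes.

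The first question was how collagen RNA differed between regions on the control diet. With edgeR's quasi-likelihood test and Benjamini-Hochberg adjustment over all 21574 genes, at an adjusted p under 0.05, 24 of 41 tested members were higher in hypothalamus than in cortex and 0 were lower, or 58.5% of those tested, where 36.1% of all genes were called. By direction, 17.7% of all genes were called higher and 18.3% lower. The median log2 fold change was 1.64 over the members and 0.06 over all genes. Against cortex, hippocampus had 15 of 41 members higher and 0 lower, or 36.6% beside 30.8% of all genes (15.4% higher, 15.3% lower). That share lies near the background, while all 15 were higher and the medians were 1 and 0.04. Hypothalamus against hippocampus had 9 members higher and 3 lower, or 29.3% beside 10% of all genes (5.86% higher, 4.13% lower), with medians of 0.89 and 0.02. Replicates are pools of animals, and the p-values measure the spread between these pools. One of the 42 genes, Col10a1, had too few reads to be tested.

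Cell type markers moved with the regions. In hypothalamus against cortex on SC, all 10 ependymal and all 9 oligodendrocyte precursor markers were higher, 4 of 10 vascular fibroblast markers were higher, mural markers gave 3 higher and 2 lower, and 10 of 12 astrocyte and 3 of 10 endothelial markers were lower. The ependymal sum was 4094 to 7637 TPM in hypothalamus and 95.75 to 383.4 TPM in cortex, and the vascular fibroblast sum 61.78 to 213.5 and 14.44 to 120.4 TPM. The 8 choroid plexus markers summed to 84.25 to 1087 TPM in hypothalamus and 270.2 to 4691 TPM in cortex on SC. In hippocampus on SC they summed to 14430, 5708, 141.8, 30210 and 33830 TPM, and 6 of the 8 were called higher than in cortex. Tanycyte markers gave 5 higher and 3 lower of 8 in hypothalamus against cortex, oligodendrocyte markers 3 higher of 10, neuron markers 1 higher and 4 lower of 10, and microglia markers 0 of 10. In hippocampus against cortex, 9 ependymal, 8 precursor, 7 oligodendrocyte, 4 mural and 3 vascular fibroblast markers were higher, and 11 astrocyte and 7 neuron markers lower. Hypothalamus against hippocampus had 8 precursor and 7 ependymal markers higher and 7 choroid plexus markers lower. The part of these cell types in the collagen differences was not tested.

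Type VIII separated cortex from the other regions through Col8a2. Its level was 27.9 to 101.4 TPM in hypothalamus on SC, with a median of 55.9. The hippocampus values of Col8a2 on SC were 19.7, 26.4, 17.1, 101.3 and 63.3 TPM, and in cortex on SC they ran from 0.169 to 8.55 TPM with a median of 1.77. Every hypothalamus and hippocampus library on SC lay above every cortex library. The log2 difference in Col8a2 was 4.21 ± 0.74 (SE; adjusted p = 3.72e-05) for hypothalamus over cortex and 3.75 ± 0.74 (adjusted p = 0.000324) for hippocampus over cortex. On HFHS, Col8a2 was at 19.8, 26.3, 51.1, 47.3 and 28.4 TPM in hypothalamus, 11.2 to 30.6 TPM (median 22.0) in hippocampus and 0.0710 to 18.3 TPM (median 1.46) in cortex. Here 1 cortex library, replicate 1, reached into the hippocampus range at 18.3 TPM, and the log2 differences from cortex were 2.99 ± 0.72 (hypothalamus, adjusted p = 0.00213) and 2.34 ± 0.67 (hippocampus, adjusted p = 0.0101). Without that library the hippocampus difference of Col8a2 on HFHS was 3.98 and that of hypothalamus 4.63.

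The partner chain gene Col8a1 was distributed otherwise. On SC its level was 0.677 to 2.83 TPM (median 0.991) in hypothalamus and 0.134 to 13.2 TPM (median 1.2) in cortex. In hippocampus on SC, Col8a1 was at 24.2, 15.3, 1.23, 62.4 and 63.2 TPM, so that replicate 3 stood with hypothalamus and cortex and the other 4 above them. The log2 difference in Col8a1 was -4.77 ± 0.95 (SE; adjusted p = 0.0016) for hypothalamus over hippocampus and 3.01 ± 0.88 (adjusted p = 0.00979) for hippocampus over cortex. On HFHS, Col8a1 was at 0.953, 1.73, 3.6, 5.37 and 1.82 TPM in hypothalamus, 7.31 to 45.4 TPM (median 12.8) in hippocampus and 0.00346 to 7.91 TPM (median 1.17) in cortex. The 2 non-cortical groups did not overlap on HFHS, and the differences were -2.92 ± 0.91 (hypothalamus over hippocampus, adjusted p = 0.0485) and 3.02 ± 0.85 (hippocampus over cortex, adjusted p = 0.00905). The first of these lost its call in 10 of 12 repeats that each left out 1 replicate of the groups compared: any hypothalamus replicate, or hippocampus replicate 1, 4, 5, 6 or 7.

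The balance of the type VIII chains set hypothalamus on SC apart. The ratio of Col8a2 to Col8a1 TPM was 35.81 to 94.41 in hypothalamus on SC, with a median of 47.84. In hippocampus on SC it was 0.8139 to 13.93 (median 1.623), and in cortex on SC 0.6458 to 2.144 (median 1.307). Hypothalamus on HFHS had ratios of 8.808 to 20.77 (median 15.22), below every SC hypothalamus library. On HFHS the ratio was 0.5945 to 3.094 (median 1.098) in hippocampus and 0.6762 to 20.5 (median 1.616) in cortex. The cortex library at 20.5, within the hypothalamus range, had 0.00346 TPM of Col8a1, from 1 estimated read. The ratio was singled out after its values were seen and is given with no test. In the hypothalamus, the summed choroid plexus markers were 84.25 to 1087 TPM on SC and 89.13, 105.9, 4214, 2199 and 890.3 TPM on HFHS.

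Col8a1 and the choroid plexus markers (among them Ttr, the transthyretin gene that is a defining product of that tissue) were high in the same libraries. Hippocampus SC replicates 4 and 5, with marker sums of 30210 and 33830 TPM, had the highest Col8a1 levels, 62.4 and 63.2 TPM. Replicate 3, with 141.8 TPM of these markers, had the lowest, 1.23 TPM. In cortex the highest marker sums, 4691 TPM in SC replicate 4 and 3330 TPM in HFHS replicate 1, stood beside Col8a1 levels of 13.2 and 7.91 TPM, the highest of each group. Col17a1, the transmembrane type XVII chain of epithelial hemidesmosomes, followed the same order in hippocampus on SC with 1.65, 0.684, 0.0608, 10.2 and 6.38 TPM, except that replicate 4 exceeded replicate 5. Its log2 difference on SC was 4.20 ± 1.24 (SE; adjusted p = 0.0102) for hippocampus over cortex, where Col17a1 was at 0.00551 to 0.215 TPM (median 0.0945). The part of choroid plexus RNA in these values was not tested.

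**Figure D3:**
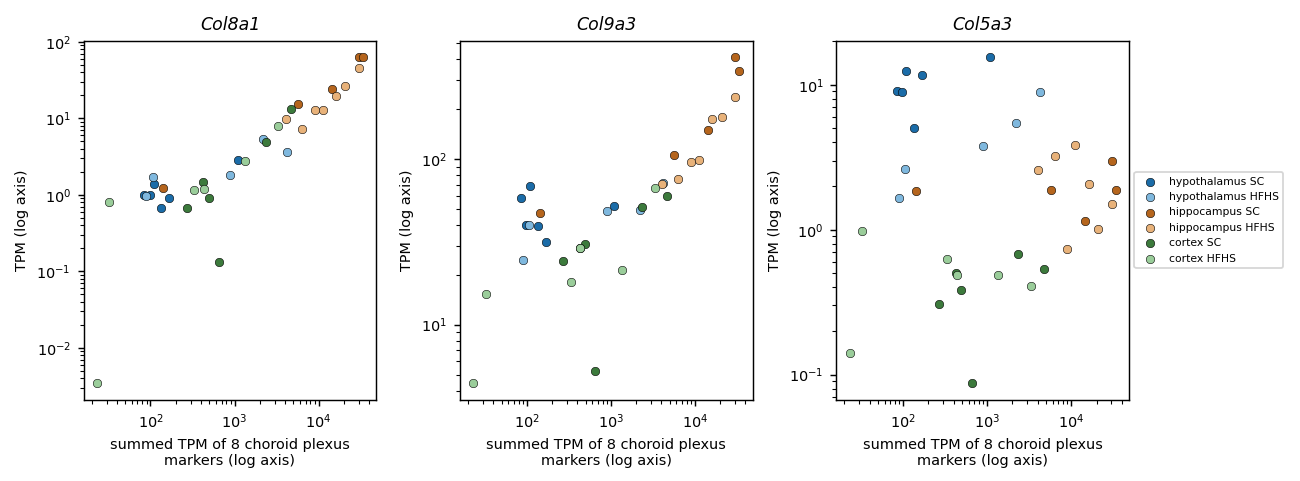
TPM of Col8a1, Col9a3 and Col5a3 (y axes, log) against the summed TPM of 8 choroid plexus markers (x axis, log) in the 35 libraries, coloured by region and diet. Col8a1 is highest, at 62.4 and 63.2 TPM, in the 2 SC hippocampus libraries with marker sums of 30210 and 33830 TPM, while Col5a3 is highest in hypothalamus on SC, where marker sums are 84.25 to 1087 TPM and the library with the top sum also has the top Col5a3 level, 15.5 TPM.

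Col9a3 had the highest mean over the 35 libraries. In hypothalamus on SC its level was 31.7 to 68.8 TPM (median 45.9), and on HFHS it was 24.5, 39.8, 71.6, 49.2 and 48.4 TPM. The hippocampus values of Col9a3 were 150.2, 105.8, 47.5, 412.3 and 340.7 TPM on SC and 70.4 to 236.7 TPM (median 97.9) on HFHS. In cortex Col9a3 was at 5.25 to 59.6 TPM (median 29.8) on SC and 4.43 to 66.3 TPM (median 19.7) on HFHS. On SC, hippocampus replicate 3 lay within the range of the other regions and the other 4 hippocampus libraries lay above them. The log2 difference in Col9a3 for hippocampus over cortex was 2.26 ± 0.44 (SE; adjusted p = 0.000278) on SC and 2.31 ± 0.42 (adjusted p = 0.00013) on HFHS. For hypothalamus over hippocampus it was -2.29 ± 0.44 (adjusted p = 0.00114) on SC and -1.55 ± 0.44 (adjusted p = 0.027) on HFHS. The last value lost its call when hypothalamus replicate 1, 2, 4 or 5 or hippocampus replicate 5 was left out, with log2 differences from -1.82 to -1.36 over all 12 repeats. The hippocampus libraries highest in Col9a3 were also those highest in choroid plexus markers.

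The other type IX chain genes had their highest values in hypothalamus instead. Col9a2 was at 5.08 to 9.27 TPM (median 6.18) in hypothalamus on SC, at 3.79, 2.03, 3.91, 2.13 and 1.66 TPM in hippocampus, and at 0.0690 to 3.46 TPM (median 2.26) in cortex. Hypothalamus did not overlap with either, and the log2 difference in Col9a2 from cortex was 2.08 ± 0.44 (SE; adjusted p = 0.000415). The Col9a2 difference from hippocampus was not called on SC. On HFHS, Col9a2 was at 6.11, 13.7, 4.99, 5.01 and 8.85 TPM in hypothalamus, 0.540 to 2.33 TPM (median 0.825) in hippocampus and 0.429 to 1.88 TPM (median 1.23) in cortex. Again hypothalamus stood clear of both, by 2.68 ± 0.44 from hippocampus (adjusted p = 0.000238) and 2.57 ± 0.46 from cortex (adjusted p = 7.87e-05).

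Col9a1 was at 0.580 to 3.29 TPM (median 2.06) in hypothalamus on SC, at 0.746, 0.809, 1.08, 0.566 and 0.557 TPM in hippocampus, and at 0.0235 to 0.289 TPM (median 0.126) in cortex. Cortex lay below both other regions, by log2 differences of 3.36 ± 0.55 (SE; hypothalamus over cortex, adjusted p = 1.23e-05) and 2.01 ± 0.54 (hippocampus over cortex, adjusted p = 0.00521). On HFHS these Col9a1 differences were 2.42 ± 0.54 (adjusted p = 0.00104) and 1.74 ± 0.51 (adjusted p = 0.0112). The ratio of Col9a3 to Col9a2 TPM had a median of 7.25 in hypothalamus, 52.09 in hippocampus and 21.11 in cortex on SC. That of Col9a3 to Col9a1 had medians of 27.23, 201.3 and 282. The type IX protein holds a chain of each gene, while their TPM levels were unequal in every group.

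Several fibrillar chain genes were higher in hypothalamus. Col5a3, the third chain of type V, was at 5.00 to 15.5 TPM (median 10.3) in hypothalamus on SC. It was at 1.15, 1.89, 1.85, 2.96 and 1.89 TPM in hippocampus and at 0.0872 to 0.683 TPM (median 0.444) in cortex. The 3 regions did not overlap in Col5a3, and the log2 differences were 4.28 ± 0.41 (SE; hypothalamus over cortex, adjusted p = 8.96e-10), 2.42 ± 0.40 (hypothalamus over hippocampus, adjusted p = 0.000282) and 1.86 ± 0.38 (hippocampus over cortex, adjusted p = 0.000499). On HFHS, Col5a3 was at 1.67, 2.62, 8.89, 5.41 and 3.76 TPM in hypothalamus, 0.735 to 3.85 TPM (median 2.08) in hippocampus and 0.141 to 0.981 TPM (median 0.488) in cortex. Hypothalamus and hippocampus overlapped on HFHS, and the differences from cortex were 2.94 ± 0.39 (adjusted p = 7.2e-07) and 1.95 ± 0.36 (adjusted p = 0.000181).

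Col27a1, a fibrillar chain first known from cartilage, was at 5.24 to 8.95 TPM (median 6.78) in hypothalamus on SC. In hippocampus on SC it was at 0.900, 0.546, 2.26, 3.01 and 1.61 TPM, and in cortex at 0.268 to 0.718 TPM (median 0.660). Hypothalamus lay above both, with log2 differences of 2.72 ± 0.34 from cortex (SE; adjusted p = 1.9e-07) and 2.08 ± 0.36 from hippocampus (adjusted p = 0.000411). Only part of this RNA was annotated as coding: in hypothalamus on SC the coding transcript held 15.7% of the gene's TPM, while transcripts annotated as targets of nonsense-mediated decay held 40.7% and 3.0% and a processed transcript 31.7%. On HFHS, Col27a1 was at 2.78, 1.39, 4.94, 2.66 and 4.92 TPM in hypothalamus, 1.82 to 5.42 TPM (median 3) in hippocampus and 0.721 to 1.77 TPM (median 1.10) in cortex. Hypothalamus and hippocampus then overlapped, and both differed from cortex, by 1.52 ± 0.34 (adjusted p = 0.00114) and 1.28 ± 0.32 (adjusted p = 0.00357).

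Col5a2, another type V chain, was at 2.02 to 5.98 TPM (median 4.15) in hypothalamus on SC, 0.605, 1.23, 1.55, 2.05 and 1.2 TPM in hippocampus and 0.144 to 1.31 TPM (median 0.714) in cortex. Only the lowest hypothalamus library, the short one, reached the hippocampus range. The log2 difference in Col5a2 was 2.16 ± 0.39 from cortex (SE; adjusted p = 5.46e-05) and 1.56 ± 0.41 from hippocampus (adjusted p = 0.0129; not called without hippocampus replicate 1). On HFHS the same differences were 1.53 ± 0.40 (adjusted p = 0.00429) and 1.41 ± 0.38 (adjusted p = 0.0208; not called without hypothalamus replicate 2).

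Col11a1, a type XI chain that fixes fibre diameter in cartilage, was at 1.04 to 2.01 TPM (median 1.5) in hypothalamus on SC, 0.282, 0.395, 0.129, 0.406 and 0.101 TPM in hippocampus and 0.0534 to 0.186 TPM (median 0.110) in cortex. Hypothalamus did not overlap with either. In Col11a1 the log2 difference was 2.90 ± 0.52 from cortex (SE; adjusted p = 4.78e-05) and 2.44 ± 0.55 from hippocampus (adjusted p = 0.00393). On HFHS it was 1.88 ± 0.51 (adjusted p = 0.00692) and 2.24 ± 0.49 (adjusted p = 0.00466).

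The type I and III chains are those of ordinary connective tissue. Col1a2, the second chain of type I, was at 5.92 to 15.4 TPM (median 10.3) in hypothalamus and 0.643 to 6.60 TPM (median 4.94) in cortex on SC. These groups overlapped in their nearest libraries, and the log2 difference in Col1a2 was 0.82 ± 0.31 (SE; adjusted p = 0.0357). That call was lost without hypothalamus replicate 2 or 3 or cortex replicate 2, 3 or 6. Col3a1, the type III chain, was at 0.865 to 5.12 TPM (median 3.29) in hypothalamus and 0.0547 to 2.63 TPM (median 0.426) in cortex on SC, with a log2 difference of 1.64 ± 0.62 (adjusted p = 0.0361), which was lost in 8 of 12 repeats (without hypothalamus replicate 1, 2 or 3 or cortex replicate 1, 2, 3, 4 or 6) and ran from 1.43 to 2.60. On HFHS the Col3a1 difference was 2.17 ± 0.65 (adjusted p = 0.0137; not called without hypothalamus replicate 4). Col5a1, of type V, was higher in hypothalamus than in cortex on SC by 2.34 ± 0.61 (adjusted p = 0.00294) at levels of 0.203 to 1.31 TPM. Col1a1, the first chain of type I, did not pass the test in any region comparison, with 1.58 to 5.92 TPM (median 3.28) in hypothalamus and 0.0735 to 2.01 TPM (median 1.46) in cortex on SC.

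Col2a1, the chain of cartilage type II that is also part of type XI, had its highest levels in hippocampus. It was at 3.23, 4.78, 7.27, 4.69 and 3.35 TPM in hippocampus, 0.238 to 1.84 TPM (median 1.25) in hypothalamus and 0.173 to 1.68 TPM (median 0.500) in cortex on SC. Hippocampus lay above both other regions without overlap, and the log2 difference in Col2a1 from cortex was 2.35 ± 0.68 (SE; adjusted p = 0.00931). The values on HFHS were 0.910 to 5.63 TPM (median 1.55) in hippocampus and 0 to 3.35 TPM (median 0.811) in cortex. They overlapped, and no region call was made for Col2a1 on HFHS.

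**Figure D4:**
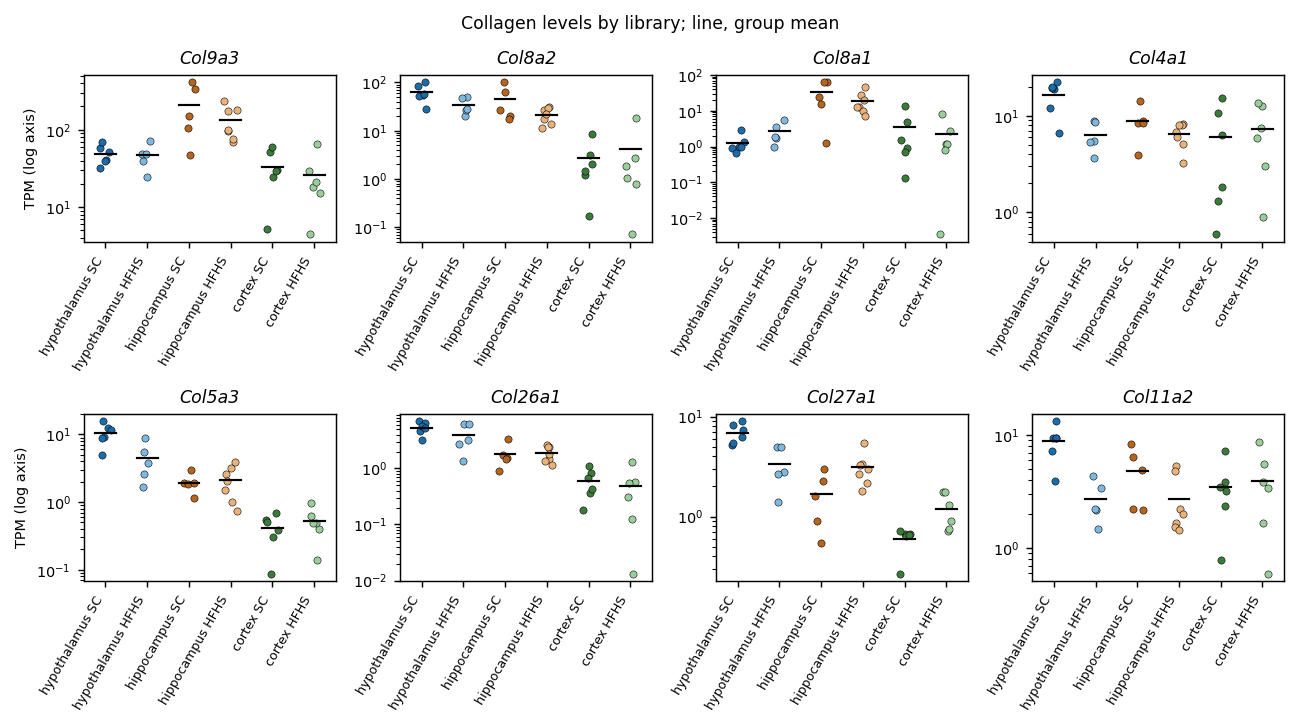
TPM (y axes, log) of 8 collagen genes in each library, by region and diet, with a line at the group mean. On SC, Col5a3 shows no overlap between regions (5.00 to 15.5 TPM in hypothalamus, 0.0872 to 0.683 TPM in cortex), Col8a1 and Col9a3 are highest in hippocampus, and in hypothalamus Col11a2 overlaps between the diets only through the short SC library.

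Type IV genes lie head to head in pairs. Col4a1 and Col4a2, the chains of the ubiquitous network, start 21 bases apart on opposite strands of chromosome 8 and share 22 bases, Col4a3 and Col4a4 start 72 bases apart on chromosome 1, and Col4a5 and Col4a6 1309 bases apart on chromosome X (GRCm38). The kit does not keep strand, so reads in the shared bases cannot be assigned to a gene by strand. The Col4a1 to Col4a2 ratio had a median of 1.668 over the 35 libraries and stayed between 0.9398 and 2.987. The ratio of Col4a5 to Col4a6 ranged more widely, with medians of 2.493 in hypothalamus, 7.278 in hippocampus and 19.65 in cortex on SC.

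Col4a1 was at 6.69 to 22.2 TPM (median 19.1) in hypothalamus, 3.92, 8.75, 8.47, 14.2 and 8.43 TPM in hippocampus and 0.592 to 15.4 TPM (median 4.07) in cortex on SC. The groups overlapped, and the log2 difference of hypothalamus over cortex was 1.2 ± 0.47 (SE; adjusted p = 0.0434), lost in 8 of 12 repeats (without hypothalamus replicate 1, 3, 4 or 5 or cortex replicate 2, 3, 5 or 6) and running from 1.01 to 1.65. Col4a2 followed Col4a1 with 2.24 to 14.1 TPM (median 10.3) in hypothalamus and 0.556 to 9.11 TPM (median 2.82) in cortex, and was not called. The 10 endothelial markers summed to 263.4 to 966.9 TPM in hypothalamus and 145.1 to 4344 TPM in cortex on SC.

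The minor type IV genes were also higher outside cortex. Col4a6 was at 0.249 to 1.41 TPM (median 1.16) in hypothalamus, 0.113, 0.358, 0.326, 0.370 and 0.134 TPM in hippocampus and 0.00621 to 0.151 TPM (median 0.0541) in cortex on SC. Only the short hypothalamus library reached the hippocampus range. In Col4a6 the log2 difference from cortex was 3.77 ± 0.64 (SE; adjusted p = 2.36e-05) on SC and 2.28 ± 0.62 (adjusted p = 0.00658) on HFHS. Hippocampus was also higher than cortex in Col4a6 on SC, by 1.84 ± 0.62 (adjusted p = 0.0232), a call lost without hippocampus replicate 2 or 4 or cortex replicate 6. Its partner Col4a5 was higher by 1.37 ± 0.51 (adjusted p = 0.0342) in hypothalamus than in cortex on SC, at 0.552 to 4.86 TPM (median 2.89) and 0.152 to 1.54 TPM (median 0.829). That call was lost in 7 of 12 repeats, without hypothalamus replicate 2, 3 or 4 or cortex replicate 2, 3, 5 or 6.

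Col4a3 and Col4a4, known from the kidney glomerulus, were higher in hippocampus than in cortex and were not called between hypothalamus and hippocampus. Col4a3 was at 1.18, 0.395, 0.565, 2.85 and 2.61 TPM in hippocampus and 0.0289 to 0.523 TPM (median 0.149) in cortex on SC, and Col4a4 at 0.682, 0.243, 0.213, 1.83 and 2.31 TPM and 0.0395 to 0.188 TPM (median 0.0713). Hippocampus replicate 2 lay within the cortex range for Col4a3, and no Col4a4 library overlapped. The log2 differences were 2.67 ± 0.61 (SE; Col4a3, adjusted p = 0.00126) and 2.17 ± 0.65 (Col4a4, adjusted p = 0.0111). On HFHS they were 1.64 ± 0.56 (Col4a3, adjusted p = 0.0298) and 2.52 ± 0.63 (Col4a4, adjusted p = 0.00352). Hypothalamus was also higher than cortex in Col4a4 on HFHS, by 1.81 ± 0.65 (adjusted p = 0.0394), a call lost without hypothalamus replicate 4 or 5 or cortex replicate 2, 4, 5 or 6. The HFHS call of Col4a3 was lost without hippocampus replicate 5 or 6 or cortex replicate 3, 5 or 6. The highest SC values of both genes were in hippocampus replicates 4 and 5, those with the highest choroid plexus marker sums. Col4a3 shares 563 of 9967 exonic bases with an antisense transcript at a mean of 0.859 TPM, whose reads cannot be told apart there. A transcript with a retained intron held 54.5% of Col4a4 TPM in hippocampus on SC and 64.9% on HFHS, beside 10.6% and 0% in cortex. The coding transcript of Col4a4 had a mean of 0.480 TPM in hippocampus and 0.0790 TPM in cortex on SC. On HFHS these means were 0.335 and 0.0677 TPM.

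Among type VI genes, region calls were made for Col6a4 and Col6a5. Col6a1 and Col6a2, the chains of the common trimer, were called in no region comparison. They were at 0.842, 0.793, 1.73, 8.90 and 1.16 TPM (Col6a1) and 1.12, 1.11, 2.17, 7.81 and 1.33 TPM (Col6a2) in hippocampus on SC, with replicate 4 well above the rest for both. Col6a5 was at 1.77 to 4.37 TPM (median 2.88) in hypothalamus, 0.444, 1.09, 0.702, 0.840 and 0.338 TPM in hippocampus and 0 to 0.738 TPM (median 0.0334) in cortex on SC. With a mean of 2.99 TPM, Col6a5 was the most abundant type VI gene in hypothalamus on SC. Hypothalamus did not overlap with either, and cortex replicate 3, at 0.738 TPM, was the single cortex library within the hippocampus range. In Col6a5 the log2 difference from cortex was 5.20 ± 0.89 (SE; hypothalamus, adjusted p = 2.35e-05) and 3.21 ± 0.84 (hippocampus, adjusted p = 0.00403). All 6 SC cortex libraries had 0 reads of Col6a4, where hypothalamus had 253 reads in all and hippocampus 61. Taking 3 reads over the cortex group as the floor, Col6a4 was at least 95.5-fold higher in hypothalamus (adjusted p = 0.00203) and at least 27.9-fold higher in hippocampus (adjusted p = 0.0132) per library total. These bounds hold for the group sums and not for each library. Under 3 reads were found in 1 of the 6 hypothalamus and 2 of the 5 hippocampus libraries, and the highest hippocampus library held 30 of the 61.

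Further FACIT and unusual chains were higher in hypothalamus. Col16a1, a FACIT found with fibrils and basement membranes, was at 4.14 to 25 TPM (median 13.8) in hypothalamus, 1.88, 5.43, 5.82, 8.51 and 4.61 TPM in hippocampus and 1.63 to 5.20 TPM (median 2.79) in cortex on SC. Of the hypothalamus libraries only the short one, at 4.14 TPM, reached the range of the other regions. The log2 differences in Col16a1 were 1.70 ± 0.39 (SE; from cortex, adjusted p = 0.000947) and 1.64 ± 0.42 (from hippocampus, adjusted p = 0.0107), and none was called on HFHS.

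Col26a1, a secreted chain of the group outside the main classes, was at 3.16 to 6.87 TPM (median 5.46) in hypothalamus, 0.899, 1.74, 3.41, 1.51 and 1.49 TPM in hippocampus and 0.178 to 1.11 TPM (median 0.557) in cortex on SC. Only hippocampus replicates 1 and 3 overlapped with a neighbouring region. In Col26a1 the log2 difference from cortex was 2.90 ± 0.43 (SE; hypothalamus, adjusted p = 2.3e-06) and 1.57 ± 0.42 (hippocampus, adjusted p = 0.00505). On HFHS, Col26a1 was at 2.75, 1.33, 3.26, 6.22 and 6.09 TPM in hypothalamus, 1.13 to 2.62 TPM (median 1.80) in hippocampus and 0.0132 to 1.31 TPM (median 0.427) in cortex, with differences from cortex of 3.77 ± 0.45 (adjusted p = 1.09e-07) and 2.49 ± 0.42 (adjusted p = 4.62e-05). It was the collagen gene with the smallest p in both of those comparisons.

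Col13a1, a transmembrane chain of cell adhesions such as the neuromuscular junction, was at 0.278 to 2.94 TPM (median 1.51) in hypothalamus, 0.274, 0.746, 0.575, 0.777 and 1.06 TPM in hippocampus and 0 to 0.310 TPM (median 0.116) in cortex on SC. The lowest hypothalamus library, the short one, and hippocampus replicate 1 lay within the cortex range. The log2 differences from cortex in Col13a1 were 3.44 ± 0.77 (SE; hypothalamus, adjusted p = 0.000687) and 2.35 ± 0.76 (hippocampus, adjusted p = 0.0187). Of the genes whose mean stayed under 1 TPM in every group, Col5a1, Col6a4, Col7a1, Col12a1, Col15a1, Col20a1 and Col22a1 were called higher in hypothalamus than in cortex on SC. For Col7a1, the anchoring fibril chain of skin, the log2 difference of 1.98 ± 0.62 (adjusted p = 0.0128) turned to -0.44 (adjusted p = 0.765) when counts were rebuilt from TPM, so its call depends on that choice. The reason was not tested.

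On HFHS the same region comparisons gave fewer calls. Hypothalamus against cortex had 16 of 41 members higher and 0 lower, or 39% beside 23.9% of all genes (14.6% higher, 9.21% lower). Hippocampus against cortex had 9 higher and 1 lower, or 24.4% beside 24.2%, a share at the background (13.4% of all genes higher, 10.8% lower). The lower member was Col14a1, a FACIT of dense connective tissue, at 0.0134 to 0.321 TPM (median 0.142) in hippocampus and 0.0148 to 2.15 TPM (median 1.03) in cortex, with a log2 difference of -2.91 ± 0.94 (SE; adjusted p = 0.0215). Hypothalamus against hippocampus had 5 higher and 2 lower, or 17.1% beside 6.42% (4.24% higher, 2.18% lower). Cell type markers moved on this diet too. In hypothalamus against cortex, 10 of 10 ependymal, 8 of 9 precursor and 4 of 10 vascular fibroblast markers were higher, mural markers gave 2 higher and 1 lower of 10, and 2 of 12 astrocyte markers were lower. In hippocampus against cortex, 10 ependymal, 6 of 10 vascular fibroblast and 6 of 8 choroid plexus markers were higher, mural markers gave 5 higher and 1 lower of 10, and 11 of 12 astrocyte markers were lower. Hypothalamus against hippocampus had 7 precursor markers higher, 3 mural markers lower and 0 of 8 choroid plexus markers called. At an edgeR unadjusted p under 0.05, 5 of these 8 were lower, where 20.4% of all genes had such a p in either direction. The median log2 difference of the 8 was -2.92. Choroid plexus sums on HFHS were 89.13 to 4214 TPM in hypothalamus and 4057 to 30210 TPM in hippocampus. The part of these cell types in the collagen calls was not tested.

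The calls on the diets can be set beside each other. The libraries are separate, but 1 model with a shared estimate of the spread gave both sets, so the calls are not independent. For hypothalamus against cortex, 15 genes were called on both diets, which is 62.5% of the SC calls and 93.8% of the HFHS calls. They were Col1a2, Col3a1, Col4a6, Col5a2, Col5a3, Col6a5, Col8a2, Col9a1, Col9a2, Col11a1, Col12a1, Col13a1, Col22a1, Col26a1 and Col27a1. For hippocampus against cortex, 8 were called on both diets (53.3% and 80.0%), namely Col4a3, Col4a4, Col5a3, Col8a1, Col8a2, Col9a1, Col9a3 and Col26a1. For hypothalamus against hippocampus there were 6 (50% and 85.7%), Col5a2, Col8a1, Col9a3, Col11a1, Col22a1 and Col26a1. The overlap over all genes was not counted, so these shares are not shown to be particular to collagens. Several of the calls made on both diets rested on single libraries. On HFHS, the hypothalamus over cortex call was lost without hypothalamus replicate 2, 3 or 4 or cortex replicate 3, 5 or 6 for Col1a2, without hypothalamus replicate 4 for Col3a1 and without hypothalamus replicate 3 for Col12a1. It was lost without hypothalamus replicate 3 or 4 for Col6a5 and Col13a1, and without cortex replicate 5 (Col6a5) or 4 (Col13a1). For hypothalamus over hippocampus, Col26a1 kept its call in 2 of 11 repeats on SC (without hypothalamus replicate 6 or hippocampus replicate 3) and 3 of 12 on HFHS (without hypothalamus replicate 2 or hippocampus replicate 3 or 6), and Col22a1 lost its SC call without hippocampus replicate 4. Of the genes called on SC only in that comparison, Col4a6 kept its call only without hypothalamus replicate 6, Col11a2 without that library or hippocampus replicate 2, and Col17a1 without hippocampus replicate 2 or 3. A gene called on 1 diet only is not thereby shown to differ between diets. The direct tests of that difference are given after the diet comparisons.

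The second question was whether the diet changed collagen RNA within a region. At an adjusted p under 0.05, 0 of 40 tested members were called in hypothalamus, 0 of 37 in hippocampus and 0 of 35 in cortex by edgeR, where 0% of all genes were called in each. DESeq2 on the same counts called 2 members in hypothalamus (of 87 genes in all), 1 in hippocampus (of 15) and 0 in cortex (of 504). At an unadjusted p under 0.05, the hypothalamus comparison held 13 members, 1 higher and 12 lower on HFHS, or 32.5% beside 8.5% of all genes (3.83% higher, 4.67% lower). In hippocampus it held 10 members, 1 higher and 9 lower, or 27% beside 5.17% (1.99% higher, 3.18% lower). In cortex it held 1, which was higher, or 2.86% beside 9.26% (4.23% higher, 5.03% lower). The median log2 fold change over the members was -0.56 in hypothalamus, -0.45 in hippocampus and 0.20 in cortex, where that over all genes was -0.01, 0 and -0.02. The 0% of all genes called by edgeR holds for the full set of libraries. Without the short libraries, edgeR called 8 of all genes in hypothalamus and 515 in cortex at an adjusted p under 0.05.

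**Figure D5:**
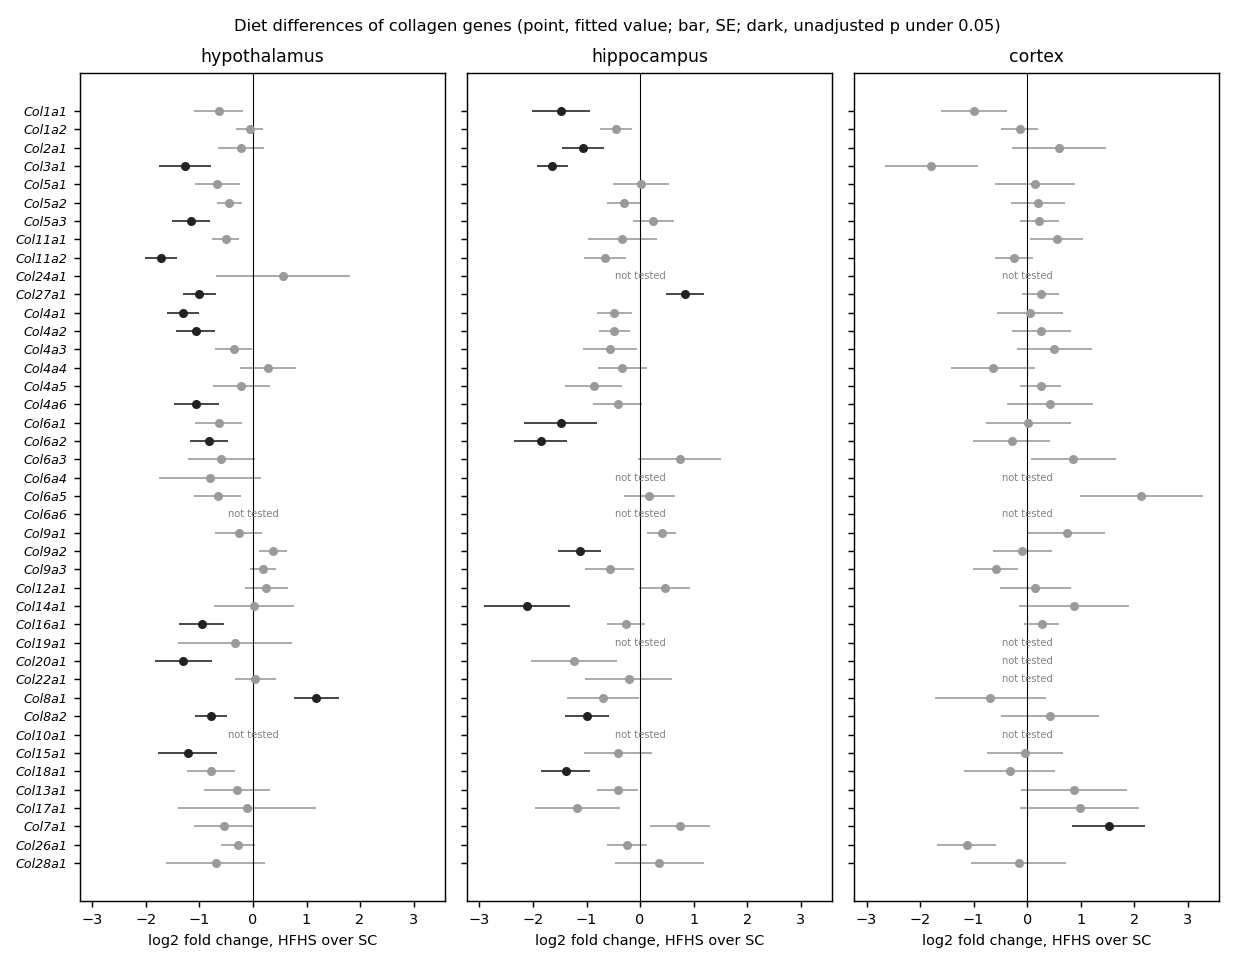
Fitted log2 fold change of HFHS over SC with its standard error (x axis) for each collagen gene (y axis, ordered by class) in the 3 regions. Dark points have an unadjusted p under 0.05 (13 in hypothalamus, 10 in hippocampus, 1 in cortex), and no point passed an adjusted p of 0.05 in edgeR.

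In hypothalamus, the smallest p belonged to Col11a2, a type XI chain. It was at 3.97 to 13.2 TPM (median 9.46) on SC and at 1.47, 2.17, 4.32, 2.22 and 3.40 TPM on HFHS. Except for the short SC library, at 3.97 TPM, every SC value lay above every HFHS value. In Col11a2 the log2 difference was -1.72 ± 0.30 (SE; edgeR unadjusted p = 4.92e-05, adjusted p = 0.333). With DESeq2 it was -1.71 (adjusted p = 9.07e-05), and without the short library it was -1.85 (edgeR adjusted p = 0.0498), so the call depends on the tool and on that library. Against cortex, hypothalamus was higher in Col11a2 by 1.09 ± 0.36 (adjusted p = 0.0186) on SC, a call lost without hypothalamus replicate 2, and was not called on HFHS.

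Col4a1 was next, with 6.69 to 22.2 TPM (median 19.1) on SC and 3.65, 5.47, 8.74, 8.58 and 5.34 TPM on HFHS. Only the short SC library, at 6.69 TPM, lay within the HFHS range. The fitted log2 difference in Col4a1 was -1.30 ± 0.30 (SE; edgeR adjusted p = 0.472), and DESeq2 gave -1.28 (adjusted p = 0.0228). Col4a2 was at 2.24 to 14.1 TPM (median 10.3) on SC and 3.02, 3.34, 6.21, 4.48 and 3.46 TPM on HFHS, with overlap through SC replicate 2 and the short library. Col27a1 had a log2 difference of -1 ± 0.30 (edgeR adjusted p = 0.472), from 5.24 to 8.95 TPM on SC to 1.39 to 4.94 TPM on HFHS without overlap.

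The fitted value was lower on HFHS in 32 of the 40 tested members and higher in 8, where 51.4% of all genes were lower. Col8a1, the 1 member with an unadjusted p under 0.05 and a higher value on HFHS, was at 0.677 to 2.83 TPM (median 0.991) on SC and 0.953, 1.73, 3.6, 5.37 and 1.82 TPM on HFHS in hypothalamus. These groups overlapped, and the 3 highest HFHS values were in the libraries with the 3 highest choroid plexus sums of that group, 4214, 2199 and 890.3 TPM. Col9a3 and Col1a2 had overlapping diets in hypothalamus (Col9a3, 31.7 to 68.8 TPM on SC and 24.5 to 71.6 TPM on HFHS; Col1a2, 5.92 to 15.4 and 5.02 to 14.7 TPM).

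Oligodendrocyte precursor markers moved the same way as most members in hypothalamus. Of 9 such markers, 8 had an unadjusted p under 0.05 and a lower value on HFHS, with 0 called at an adjusted p under 0.05, and their median log2 difference was -1.32. Their sum was 571.4, 398.0, 393.7, 408.6, 520.5 and 237.6 TPM in the SC libraries and 153.7, 95.75, 228.6, 292.2 and 176.6 TPM on HFHS. The lowest SC sum, in the short library, lay within the HFHS range. Astrocyte markers leaned the other way, with 6 of 12 higher at an unadjusted p under 0.05. Their sum was 1595 to 2697 TPM on SC and 1955, 7400, 1562, 2440 and 2423 TPM on HFHS. Only HFHS replicate 2, at 7400 TPM, lay above the SC range, and it also had the lowest precursor sum, 95.75 TPM. At the same unadjusted threshold, mural markers gave 0 of 10 and vascular fibroblast markers 1 of 10, lower. Whether the precursor cells had a part in the collagen values was not tested.

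In hippocampus, Col3a1 had the smallest p. It was at 1.30, 1.73, 2.05, 2.58 and 1.04 TPM on SC and 0.368 to 1.11 TPM (median 0.556) on HFHS, and the groups overlapped only in their nearest libraries, 1.04 and 1.11 TPM. The fitted log2 difference in Col3a1 was -1.64 ± 0.29 (SE; edgeR unadjusted p = 6.57e-05, adjusted p = 0.497), and -1.62 with DESeq2 (adjusted p = 0.000198). Col6a2 was at 1.12, 1.11, 2.17, 7.81 and 1.33 TPM on SC and 0.316 to 1.18 TPM (median 0.659) on HFHS. Its log2 difference was -1.86 ± 0.49 (edgeR adjusted p = 0.876), between -2.04 and -0.99 when single replicates were left out, and a single library, SC replicate 4, stood far above the rest. Col18a1, the basement membrane chain that gives rise to endostatin, was at 3.17, 3.76, 1.84, 11.6 and 7.02 TPM on SC and 0.755 to 3.82 TPM (median 1.88) on HFHS, with a log2 difference of -1.39 ± 0.46 (edgeR adjusted p = 0.876). SC replicates 1 to 3 lay within the HFHS range of Col18a1 and replicates 4 and 5 above it.

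The other hippocampal members with a lower value on HFHS at an unadjusted p under 0.05 were Col1a1, Col2a1, Col6a1, Col8a2, Col9a2 and Col14a1. The 1 with a higher value was Col27a1, at 0.900, 0.546, 2.26, 3.01 and 1.61 TPM on SC and 1.82 to 5.42 TPM (median 3) on HFHS, with overlap. For Col1a1 the values were 1.61, 1.10, 2.30, 2.25 and 2.61 TPM on SC and 0.124 to 1.40 TPM (median 0.577) on HFHS, overlapping through SC replicate 2. Of 9 oligodendrocyte precursor markers, 5 had lower values on HFHS in hippocampus at an unadjusted p under 0.05. Of 10 vascular fibroblast markers 2 had higher ones, of 10 microglia markers 4 had higher ones, and of 8 choroid plexus markers 0 passed that threshold. Whether these cells had a part in the collagen values was not tested.

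In cortex the 3 smallest p belonged to Col7a1, Col3a1 and Col26a1. Col7a1 was at 0.0136 to 1.03 TPM (median 0.0770) on SC and 0.0196 to 0.803 TPM (median 0.167) on HFHS, with full overlap and a log2 difference of 1.52 ± 0.68 (SE; edgeR adjusted p = 0.518). Col3a1 was at 0.0547 to 2.63 TPM (median 0.426) on SC and 0.00311 to 0.527 TPM (median 0.188) on HFHS, with a difference of -1.79 ± 0.87 (edgeR adjusted p = 0.57). It ran from -2.20 to -0.82 over the repeats that left out 1 library, and 1 SC library, replicate 5, held the highest value. Col26a1 had a log2 difference of -1.13 ± 0.55 (edgeR adjusted p = 0.574) at 0.178 to 1.11 TPM on SC and 0.0132 to 1.31 TPM on HFHS.

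Whether the diet difference varied by region was tested as an interaction over all 35 libraries. By edgeR, 0 of 41 members were called in each of the 3 interactions, where 0% of all genes were, and DESeq2 called 0 members in each. At an unadjusted p under 0.05 there were 8 members for hypothalamus against cortex, all with the lower diet difference in hypothalamus (19.5% beside 11.6% of all genes, of which 6.11% higher and 5.46% lower). For hippocampus against cortex there were 2, both lower in hippocampus (4.88% beside 9.3%, of which 4.52% higher and 4.78% lower). For hypothalamus against hippocampus there were 3, with 1 higher and 2 lower (7.32% beside 2.01%, of which 1.05% higher and 0.959% lower). The comparisons share libraries and are not independent of each other. Without the short libraries, edgeR called 475 of all genes for hypothalamus against cortex at an adjusted p under 0.05, and 0 for each of the others.

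The genes that make and use collagen were also followed. Of 20 folding and modification enzymes, 4 were higher and 3 lower in hypothalamus than in cortex on SC, with a median log2 difference of 0.29. Over all genes, 36.1% were called in this comparison (17.7% higher, 18.3% lower), so the counts of the enzymes, and of the processing, receptor and breakdown genes that follow, are with both directions together at or below the background. Plod2, a lysyl hydroxylase that prepares collagen for crosslinking, was higher by 2.01 ± 0.27 (SE; edgeR adjusted p = 6.48e-07) and P4ha3, a prolyl hydroxylase subunit, by 1.26 ± 0.28 (adjusted p = 0.000552). Fkbp10, a collagen chaperone, was lower, with -1.29 ± 0.33 (adjusted p = 0.00266). Of 14 processing and crosslinking genes, 3 were higher and 1 lower. Pxdn, the peroxidasin that crosslinks type IV, was higher by 2.05 ± 0.44 (adjusted p = 0.000411) and Adamts2, a procollagen N-proteinase, by 1.67 ± 0.44 (adjusted p = 0.00351).

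Among 12 receptor genes, 4 were higher and 0 lower in the same comparison. Ddr1, a collagen-binding receptor kinase, was higher by 2.29 ± 0.40 (SE; edgeR adjusted p = 3.32e-05) and Mrc2, an endocytic collagen receptor, by 3.06 ± 0.50 (adjusted p = 1.1e-05). Of 11 breakdown genes, 2 were higher and 1 lower, with Mmp2, a gelatinase, higher by 3.03 ± 0.59 (adjusted p = 0.000138). Of 13 basement membrane partners, 7 were higher and 0 lower, beside 17.7% and 18.3% of all genes, among them the laminin chain Lamb1 by 2.91 ± 0.53 (adjusted p = 5.57e-05) and Hspg2, which encodes perlecan, by 2.10 ± 0.62 (adjusted p = 0.00766). On HFHS, 3 of the 13 partners were higher and 0 lower, where 14.6% of all genes were higher and 9.21% lower. The median log2 difference of the partners was 1.08 on SC and -0.14 on HFHS. In the diet comparisons by edgeR, 0 genes of these 5 lists were called in any region. At an unadjusted p under 0.05 in hypothalamus, the basement membrane partners gave 5 lower and 1 higher of 13, the receptors 3 lower and 1 higher of 12, and the folding enzymes 2 lower and 3 higher of 20, where 4.67% of all genes were lower and 3.83% higher. The summed level of the 13 partners went the other way, with overlap. It was 1239 to 2484 TPM (median 1621) on SC and 1801 to 6561 TPM (median 2575) on HFHS.

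In transcript terms, 1 coding transcript (Col9a3-201) held 65.2% of Col9a3 TPM in hypothalamus on SC and 78.9% on HFHS, 83.6% and 82.5% in hippocampus and 87.6% and 78.3% in cortex. A transcript with a retained intron (Col9a3-206) held 12.5% in hypothalamus on SC and 2.4% in cortex. Col9a3 shares 234 of 3853 exonic bases with Tcfl5 on the other strand, which had a mean of 0.0713 TPM. Col8a1 and Col8a2 each came nearly whole from 1 coding transcript, with 97.3% of Col8a1 and 97.9% of Col8a2 TPM in hypothalamus on SC.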

How the data were processed

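RNA was amplified with the SMART-Seq v4 kit, which does not mark strand, per the labels' protocols. The authors deposited, per transcript and library, an estimated count and a TPM value from Salmon on GRCm38, per the submitters' processing notes, which also name FastQC. The sources used here do not give versions, trimming or annotation. From these files, transcripts were matched to GENCODE M21 by identifier without version (139852 of 140948; the 1096 others held 0.214 to 0.535% of reads), and estimated counts and TPM were summed per gene. Counts were rounded to whole numbers.

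Tests used edgeR 4.0.16 in R 4.3.3 (filterByExpr, TMM, robust quasi-likelihood, Benjamini-Hochberg over all genes, threshold 0.05). The diet comparisons used the libraries of 1 region, while the region and interaction contrasts used 1 model of 6 groups, each with 3 comparisons on SC, on HFHS or between diet effects. SE was taken from the log2 fold change and its F statistic. TPM corrects for length, so levels of different genes were compared only in TPM. The scripts were checked on simulated data. Alternatives were DESeq2 1.42.0, RLE scaling, no filter, counts from TPM, a replicate block, leaving out the 3 short libraries and leaving out each replicate.

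The members, gene lists and tests were chosen with earlier results of these data known. Fold changes are given for members past the threshold, or with the 3 smallest p in a diet comparison. Library values are given for members reaching a mean of 1 TPM in a group, their chain partners and those 3. Of a list, up to 4 genes of smallest p could be named, and Atp1b2 in any case. The HFHS label of 58% is given without its basis. Lamc3 and Cspg4 each stand in 2 lists. A glycine run is a stretch of codons in which the first of every 3 encodes glycine (begins with GG).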

Additional observations from a re-analysis of the deposited data

Results flagged for a closer look

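Sets of values in 1 group, each of 1 gene or of the summed collagen TPM, were put to Dixon's test. Of 174 sets, 22 had a single library far from the others, all of them sets of 1 gene. For normally distributed values chance flags about 1 in 20 sets, or 8.7. The TPM values were tested untransformed and need not be so distributed. Libraries share a source across genes, so these flags are not independent.

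In hippocampus on SC, replicate 4 was far above the others for Col1a2 (18.1 TPM, others 4.84 to 7.37), Col6a1 (8.90 TPM, others 0.793 to 1.73) and Col6a2 (7.81 TPM, others 1.11 to 2.17). That library also had 30210 TPM of choroid plexus markers. In hippocampus on HFHS, the highest libraries were replicate 2 for Col2a1 (5.63 TPM, others 0.910 to 1.91), replicate 6 for Col6a1 (2.47 TPM, others 0.203 to 0.921), replicate 5 for Col9a1 (1.34 TPM, others 0.752 to 0.936) and Col17a1 (4.26 TPM, others 0.249 to 1.69), and replicate 4 for Col27a1 (5.42 TPM, others 1.82 to 3.37).

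In cortex, the type VIII genes stood apart in the libraries with the highest choroid plexus sums. SC replicate 4 had 13.2 TPM of Col8a1 (others 0.134 to 4.84) and 8.55 TPM of Col8a2 (others 0.169 to 3.13). HFHS replicate 1 had 7.91 TPM of Col8a1 (others 0.00346 to 2.77), 18.3 TPM of Col8a2 (others 0.0710 to 2.68), 1.65 TPM of Col17a1 (others 0 to 0.586) and 0.263 TPM of Col4a6 (others 0.00396 to 0.0982). Other high cortex values on SC were Col3a1 in replicate 5 (2.63 TPM, others 0.0547 to 0.827), Col4a4 in replicate 1 (0.188 TPM, others 0.0395 to 0.0909) and Col6a5 in replicate 3 (0.738 TPM, others 0 to 0.0481). Col27a1 was low in cortex SC replicate 2 (0.268 TPM, others 0.638 to 0.718).

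In hypothalamus, the short SC library, replicate 6, was low for Col4a6 (0.249 TPM, others 1.05 to 1.41). SC replicate 4 was high for Col6a2 (2.66 TPM, others 1.12 to 1.66) and SC replicate 3 for Col8a1 (2.83 TPM, others 0.677 to 1.37), and HFHS replicate 4 was high for Col1a1 (5.54 TPM, others 0.767 to 1.78).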

How the results depend on the processing

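Under the other tool, scaling, filter, form of counts, block and library choices, most counts of collagen genes called kept within 1.5 times. The exceptions were the diet comparisons in hypothalamus and hippocampus, where 0 became 1 or 2, and hypothalamus against hippocampus. In the last, 12 on SC became as few as 7, and 7 on HFHS became as few as 3 or 4. The other changes given here lay within that bound. For the diet comparison in hypothalamus, 0 became 2 with DESeq2, 1 without the short libraries, and 0 to 1 when single replicates were left out (1 without SC replicate 6). In hippocampus, 0 became 1 with DESeq2, and none of the short libraries is there to leave out. For hypothalamus against hippocampus on SC, 12 became 7 to 11 when single replicates were left out (7 without hippocampus replicate 1 or 4), 8 with no filter and 8 with counts from TPM. On HFHS, 7 became 3 with the replicate block, 5 with counts from TPM, 5 with no filter, and 4 to 7 when single replicates were left out (4 without hypothalamus replicate 2, 4 or 5 or hippocampus replicate 5). Of the region counts against cortex, 24 on SC became 18 with counts from TPM and 20 to 26 without single replicates, 16 on HFHS became 13 and 11 to 18, 15 became 12 and 14 to 18, and 10 became 10 and 9 to 12. Same-numbered libraries of 2 groups had deviations correlated from -0.06 to 0.54, and in no pair of groups did all exceed 0.1. Their mean correlation was above that of other-numbered libraries in each pair of groups. It was 0.24 against -0.04 between the diets in cortex, and 0.22 against -0.04 in hippocampus. With the replicate block, 412 of all genes were called in the cortex diet comparison, where the main test called 0. The block also gave 299 calls over all genes in the interaction of hypothalamus and cortex, where the main test called 0. Whether same-numbered libraries share a source was not tested, and the main tests did not pair them. Among single fold changes, Col7a1 for hypothalamus over cortex on SC reversed to -0.44 with counts from TPM. Calls of single genes were lost 18 times with counts from TPM, 8 with the block, 7 with no filter, 4 without the short libraries and 121 times when single replicates were left out. The causes were not tested. Genes under 1 TPM rest on few reads, and a p that misses the threshold does not show that values did not differ.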
